A study of Homo sapiens with 9 samples.

Results

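Genes of cholesterol and fatty acid synthesis were examined in RIVA cells expressing BCL10 mutants. RIVA is a standard culture line derived from a diffuse large B-cell lymphoma (DLBCL) of the activated, or ABC, subtype. The 31 genes were chosen by name, with earlier results of these data known, from the 60656 genes counted, and all 31 were found. They comprise 7 genes of the mevalonate steps, 11 of the steps from squalene to cholesterol, 5 regulators of the SREBP transcription factors, 7 of fatty acid synthesis and desaturation, and the sterol carrier STARD4. Cells carried a doxycycline-inducible lentiviral pLVX-TetOne construct with no insert (vector), with BCL10 S136X, a truncation, or with BCL10 R58Q, a missense mutant. All 3 groups were selected with puromycin and given doxycycline at 200 ng/mL for 24 h, and each was sequenced as 3 libraries of poly(A) RNA. The labels list the vector cells as BCL10 wild type, so the cells' own BCL10 was present beside the construct. Both mutants are compared with empty vector, and an inducible wild-type BCL10 is not analysed here.

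Cholesterol is built from acetyl-CoA through the mevalonate pathway, which also feeds farnesyl and geranylgeranyl groups to proteins, and then through squalene, lanosterol and a series of sterol intermediates. Fatty acids start from the same acetyl-CoA, made in the cytosol by ACLY. Both routes are switched on by the SREBP proteins, membrane-bound transcription factors that SCAP escorts from the endoplasmic reticulum for cleavage when sterols are low and that INSIG proteins hold back when sterols are high. INSIG1 is itself a SREBP target. Dividing lymphocytes draw on both routes for new membrane.

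Upstream sequence was examined because most of these genes are known to be regulated together at their promoters. The 250 bases before the RefSeq start (GRCh38.p14) were held for 27 of the 31 genes, with no entry for ACAT2, FDFT1, SQLE and FASN. The CCAAT box (CCAAT, read on either strand), which binds the factor NF-Y, was in 17 of the 27 (63%), beside 33% of all 27305 promoters and 35.7% of the 9784 whose genes had at least 10 counts in every library. The GC box (GGGCGG, either strand) was in 25 of the 27 (92.6%), beside 42.3% and 67.6% of the same backgrounds. The E-box CACGTG was in INSIG1, SC5D and SCAP (11.1%, beside 6.49% and 9.01%). A sterol response element core, searched as TCACNCCAC, was in SREBF2 alone (3.7%, beside 0.875% and 0.869%), and an NF-kB motif, searched as GGG and TTTCC parted by any 2 bases, was in TM7SF2 alone (3.7%, beside 1.73% and 1.99%). These are matches of letters and not binding sites, and the base composition of the promoters was not matched.

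Shown here, 5′ to 3′ on the strand of each gene, are stretches of these windows that lie outside every annotated exon, with CCAAT boxes of either orientation in capitals. The first 6 belong to genes that rose in S136X and hold the box. SC5D also rose and holds the box, but its whole window lies within annotated exons and is not shown. The box was also in EBP, FDPS, HSD17B7, MSMO1, MVK, NSDHL, SCD, SREBF2, STARD4 and TM7SF2, with 5 each in MVK and NSDHL. None of these rose in S136X by the main test below, and a link between the box and a rise was not tested. CYP51A1, which rose in both mutants, and ELOVL6, which was lower in every mutant library than in the vector library of the same number, hold no CCAAT box. They span chr5:43313513-43313662 (HMGCS1), chr16:88663162-88663297 (MVD), chr21:46228825-46229024 (LSS), chr11:71448436-71448643 (DHCR7), chr7:92134531-92134603 (CYP51A1) and chr4:110198677-110198841 (ELOVL6) on the minus strand, chr7:155297628-155297775 (INSIG1) on the plus strand, and chr17:41919023-41919272 (ACLY) on the minus strand.
HMGCS1: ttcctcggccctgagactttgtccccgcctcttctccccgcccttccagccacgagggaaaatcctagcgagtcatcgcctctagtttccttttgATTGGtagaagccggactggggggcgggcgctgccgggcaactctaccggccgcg
MVD: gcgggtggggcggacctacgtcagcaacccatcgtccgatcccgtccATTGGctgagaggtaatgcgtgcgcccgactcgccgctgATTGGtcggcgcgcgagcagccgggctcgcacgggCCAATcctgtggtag
LSS: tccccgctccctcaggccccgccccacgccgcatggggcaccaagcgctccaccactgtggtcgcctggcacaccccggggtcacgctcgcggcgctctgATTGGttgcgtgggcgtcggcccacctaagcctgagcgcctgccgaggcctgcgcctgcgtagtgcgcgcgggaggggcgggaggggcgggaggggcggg
DHCR7: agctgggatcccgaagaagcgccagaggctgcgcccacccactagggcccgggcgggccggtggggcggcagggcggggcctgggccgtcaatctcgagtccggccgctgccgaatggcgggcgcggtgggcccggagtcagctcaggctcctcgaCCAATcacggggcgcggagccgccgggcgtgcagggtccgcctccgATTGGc
INSIG1: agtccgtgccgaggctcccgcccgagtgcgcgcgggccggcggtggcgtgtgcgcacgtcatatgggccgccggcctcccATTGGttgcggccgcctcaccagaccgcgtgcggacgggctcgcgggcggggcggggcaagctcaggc
ACLY: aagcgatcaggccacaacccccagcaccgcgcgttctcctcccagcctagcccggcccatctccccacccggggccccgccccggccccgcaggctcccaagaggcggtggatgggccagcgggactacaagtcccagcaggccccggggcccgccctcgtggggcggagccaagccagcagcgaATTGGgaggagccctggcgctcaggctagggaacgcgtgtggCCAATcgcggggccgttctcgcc
CYP51A1: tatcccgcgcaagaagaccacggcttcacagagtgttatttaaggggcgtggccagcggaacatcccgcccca
ELOVL6: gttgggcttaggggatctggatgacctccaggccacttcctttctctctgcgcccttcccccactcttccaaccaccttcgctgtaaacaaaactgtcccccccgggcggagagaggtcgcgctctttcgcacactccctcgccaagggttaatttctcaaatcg

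Libraries held 28047713 to 33122267 counts, with a median of 32185418, of which the 31 genes took 0.4255% to 0.5868%. BCL10 was at 26.3 to 38.8 CPM (counts put on the same library size, with TMM factors from edgeR) in vector, 345 to 488 CPM in S136X and 310 to 357 CPM in R58Q, and reads of the construct and of the cells' own gene cannot be told apart. The summed level of 6 B-cell markers was 2345 to 3064 CPM, while 3 T-cell, 4 myeloid and 4 hepatocyte and adipocyte markers summed to at most 0.324, 0.589 and 0.468 CPM in any library and 3 epithelial markers, mainly EPCAM, to 36.4 to 59.5 CPM with overlapping ranges in the 3 groups. Column names in the deposited table hold 2 dates, an earlier one shared by vector and S136X and a later one for R58Q, so the date and R58Q cannot be told apart. These were bulk libraries, in which expression in fewer cells and less RNA per cell cannot be told apart. The paper calls the replicates biologic and states, for its experiments in general, that replicates were independent. The labels do not say whether these libraries came from separate cultures, and p-values measure the spread between them, which may be technical. Libraries with the same replicate number deviated from their group means together, though only weakly for vector replicate 2. The fit with the replicate number as a block is therefore given wherever it changes a call.

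In vector cells, mean levels per kilobase of exon ranged widely among the 31 genes. SCD, the desaturase that makes oleate, stood highest at 100.9 CPM per kb, followed by ACLY at 80.8, the transcription factor gene SREBF2 at 61.8, the fatty acid synthase FASN at 58.4 and INSIG1 at 53.6. MVK and CYP51A1 were lowest at 2.452 and 2.458 CPM per kb. CYP51A1 is a special case. Its overlaps with other annotated genes, the longest with AC000120.2 on the same strand, sum to 86% of its exon length. Bases under several genes are counted for each in that sum. Of the 31-base words of its longest transcript, 89.9% occur in other genes. How the authors' counting assigned such reads is not given in the sources used here, so the level and the fold change of CYP51A1 are uncertain. AC000120.2 itself was at 0.386 to 0.917 CPM. HSD17B7 (26.8% of words elsewhere, mainly in HSD17B7P2), SCD (12.6%), MSMO1 (9.16%) and FDPS (8.91%) also share sequence with other genes. Exons of 15 of the 31 overlap those of another annotated gene.

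S136X cells were compared with vector to ask which of the genes differed with the truncation. In S136X, 3 of the 7 mevalonate genes and 6 of the 11 genes from squalene to cholesterol rose, together with INSIG1 and ACLY. By the quasi-likelihood test of edgeR, with p-values adjusted over all genes tested after Benjamini and Hochberg, 11 of the 31 rose (ACAT2, HMGCS1, MVD, FDFT1, SQLE, LSS, CYP51A1, SC5D, DHCR7, INSIG1 and ACLY) and 0 fell. That is 35.5%, beside 10.1% of the 15530 genes tested called in either direction, 6.03% called higher and 4.1% called lower. Only CYP51A1 and INSIG1 also reached 1.5-fold, a rule met by 2.05% of all genes in the upward direction. The fitted change was above 0 for 28 of the 31 genes, beside 46.9% of all genes, and the 3 S136X libraries lay above all 3 vector libraries for 18 (58.1%, beside 16%). The median change of the 31 was 0.28 on the log2 scale (1.21-fold), against -0.020 for all genes. The direction among all genes depended on the scaling, with 937 genes higher and 637 lower under TMM and 690 higher and 930 lower when only total counts were used, while 8 of the 31 then still rose with a median of 0.222. With the replicate block, 20 of the 31 rose and ELOVL6 fell (67.7%, beside 24.7% of all genes, of which 12.9% higher and 11.8% lower), and S136X was above vector in all 3 same-numbered pairs for 24 (beside 26.7%).

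**Figure D1:**
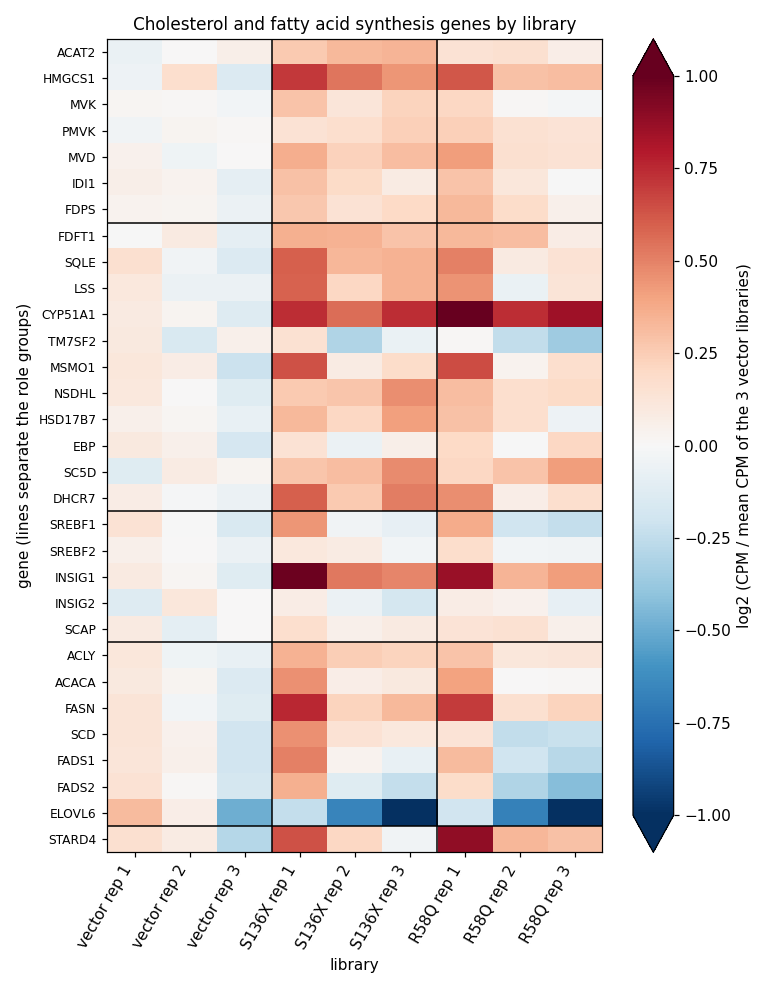
Level of each of the 31 genes in each of the 9 libraries as log2 of its CPM over the mean of the 3 vector libraries, with red higher and blue lower; horizontal lines separate the role groups and vertical lines the constructs. Red fills most of the sterol rows in S136X, INSIG1 and CYP51A1 are the deepest, ELOVL6 is blue in 6 of the 6 mutant libraries, and replicate 1 is the reddest column of each mutant.

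The count of 11 leaned on single libraries, as did the count over all genes. It was 3 without vector replicate 2, 6 without vector replicate 3, 4 without S136X replicate 3, and 9 to 11 (1 of the 9 a fall, that of ELOVL6) when one of the other libraries was left out. Over all genes (15883 to 15989 tested), 1574 calls became 485, 886 and 734 in the first 3 fits and 1157 to 1473 in the others. HMGCS1, FDFT1 and CYP51A1 passed in 6 of 6 of these fits, INSIG1 in 5, ACAT2 and DHCR7 in 4, SQLE in 3, MVD, LSS and SC5D in 2 and ACLY in 1. The median change of the 31 was 0.173 without S136X replicate 1.

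R58Q cells were compared with vector to ask the same of the missense mutant. HMGCS1, CYP51A1, INSIG1 and SC5D rose and 0 genes fell. These 4 of 31 (12.9%) stand beside 21% of the 15435 genes tested called in either direction, 12.3% called higher and 8.76% called lower, so the share called among the 31 was at the background. Only CYP51A1 reached 1.5-fold (4.09% of all genes were called higher by that rule). The fitted change was above 0 for 26 of the 31 (beside 46.4%), R58Q libraries lay above all vector libraries for 11 (35.5%, beside 21.1%), and the median change was 0.17 (1.13-fold) against -0.028 for all genes. Among all genes, 1891 were higher and 1352 lower under TMM, and 1416 higher and 1869 lower with total counts only. With the replicate block 14 of the 31 rose and ELOVL6 fell (48.4%, beside 35.2% of all genes, of which 18.2% higher and 17% lower). The count of 4 was 2 when vector replicate 1 was left out, 2 for vector replicate 2 and 1 for vector replicate 3. Over all genes, 3243 calls became 2908 of 15765, 1322 of 15772 and 1730 of 15730 there. Of the 6 fits with 1 library left out, CYP51A1 passed in 6, INSIG1 in 4, HMGCS1 in 2 and SC5D in 1. Outside the 4 called genes, FDFT1 passed in 1 of these fits as a rise, and ELOVL6 and FADS2 in 1 each as falls.

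**Figure D2:**
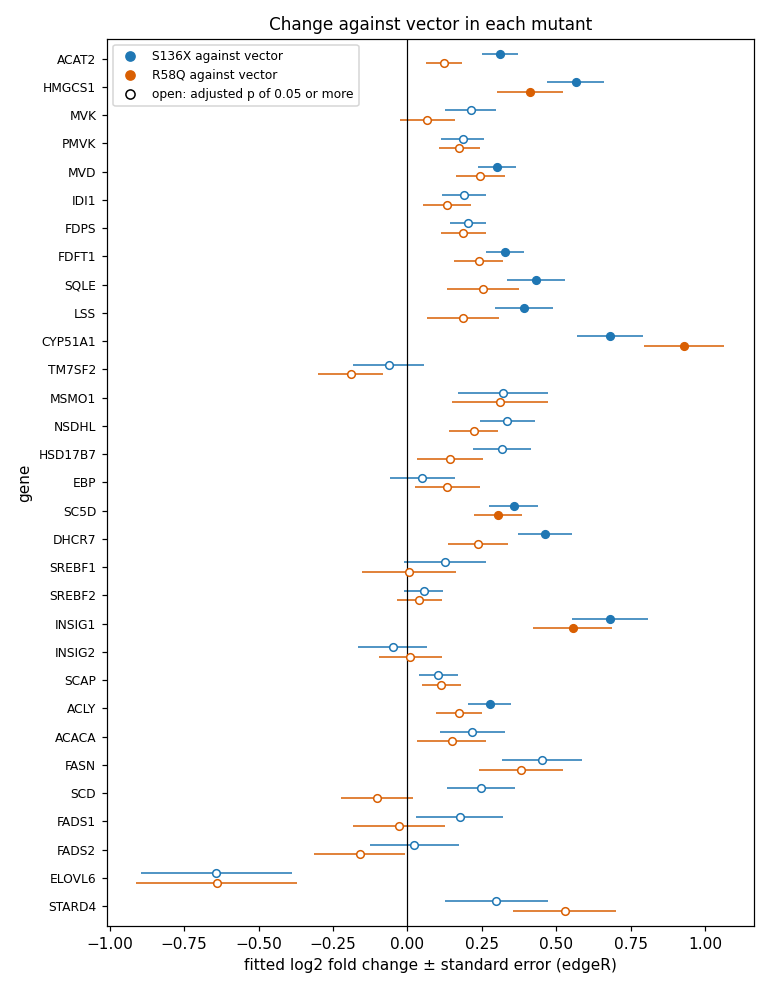
Fitted log2 fold change against vector with its standard error for each of the 31 genes, blue for S136X and orange for R58Q; filled points have an adjusted p under 0.05 and open points do not. The 11 filled blue points and 4 filled orange points all lie to the right of 0, and ELOVL6 lies farthest to the left in both mutants, at -0.64.

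Among the 7 mevalonate genes, 3 rose in S136X (42.9%, beside 10.1% of all genes called) and 1 in R58Q (14.3%, beside 21%). S136X libraries lay above all vector libraries for 7 of 7 (beside 16% of all genes), with a median change of 0.21. HMGCS1 (ENSG00000112972.15, chr5:43287470-43313512), which makes HMG-CoA, was at 137.9, 160.8 and 130.4 CPM in vector replicates 1 to 3, 233, 207 and 194 CPM in S136X and 219.5, 175 and 177 CPM in R58Q. All 6 mutant libraries lay above the vector libraries. Its exons overlap the antisense gene AC114947.2, at 0.0883 to 0.7175 CPM, over 15% of their length. The change was 0.57 ± 0.096 (log2, SE; 1.48-fold, adjusted p = 0.0093) in S136X and 0.41 ± 0.11 (1.33-fold, adjusted p = 0.0322) in R58Q. ACAT2 (chr6:159762045-159779112), which joins acetyl-CoA units at the start of the route, was at 54.6, 57.4 and 59.3 CPM in vector, 68.6, 71.7 and 72.3 CPM in S136X and 63.3, 63.9 and 59.8 CPM in R58Q. Its S136X libraries stood above both other groups, and the change was 0.31 ± 0.061 (adjusted p = 0.0162) in S136X and 0.12 ± 0.060 (adjusted p = 0.177) in R58Q. Exons of ACAT2 overlap those of SOD2-OT1, SOD2 and TCP1 on the opposite strand, with TCP1 the shortest part. Added gene by gene, these overlaps sum to 69.7% of the exon length of ACAT2. SOD2-OT1 was at 0.0620 to 0.122 CPM. SOD2 was at 22.4 ± 0.607 CPM (SD, n = 3) in vector, 24.0 ± 3.79 CPM in S136X (adjusted p = 0.629) and 24.1 ± 2.09 CPM in R58Q (adjusted p = 0.42). TCP1 rose from 227 ± 1.49 CPM in vector to 276 ± 5.97 CPM in S136X (adjusted p = 0.0146) and 279.5 ± 3.24 CPM in R58Q (adjusted p = 0.00616). Whether counting used strand is not given in the sources used here, and the part of TCP1 reads in the ACAT2 value was not tested. MVD (chr16:88651935-88663161), the decarboxylase that yields isopentenyl diphosphate, was at 53.4, 50.3 and 51.9 CPM in vector, 66.7, 60.8 and 64.1 CPM in S136X and 69.3, 57.96 and 57.3 CPM in R58Q. The mutant libraries did not overlap the vector libraries, with a change of 0.30 ± 0.064 (adjusted p = 0.0215) in S136X and 0.24 ± 0.083 (adjusted p = 0.0693, 0.0153 with the block) in R58Q. The kinases MVK and PMVK, the isomerase IDI1 and the farnesyl diphosphate synthase FDPS had changes of 0.185 to 0.212 in S136X and 0.067 to 0.188 in R58Q, none of which passed, while with the block FDPS rose in both mutants and IDI1 in S136X.

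Of the 11 genes from squalene to cholesterol, 6 rose in S136X (54.5%, beside 10.1%) and 2 in R58Q (18.2%, beside 21%). FDFT1, the squalene synthase, was at 276, 293.5 and 260.3 CPM in vector, 353, 351 and 336 CPM in S136X and 346, 343 and 291 CPM in R58Q. S136X libraries were above every vector library, while the lowest R58Q library lay just under the highest vector library. The change was 0.33 ± 0.065 (adjusted p = 0.0164) in S136X and 0.24 ± 0.084 (adjusted p = 0.0757, 0.00775 with the block) in R58Q. SQLE, the squalene epoxidase and a rate-limiting enzyme of the route, was at 118, 103 and 96.2 CPM in vector, 160.5, 133 and 135 CPM in S136X and 150.0, 112 and 117 CPM in R58Q. It rose by 0.43 ± 0.098 (adjusted p = 0.0274) in S136X. In R58Q its change of 0.25 ± 0.12 did not pass in the main fit (adjusted p = 0.167). It passed in 2 of 8 alternative fits that kept every library, the block among them (adjusted p = 0.00906). LSS (chr21:46188141-46228824), which closes the ring to form lanosterol, was at 127, 113 and 113 CPM in vector, 177, 136.3 and 150.2 CPM in S136X and 160.5, 113 and 129 CPM in R58Q. It was above vector in 3 of 3 pairs in S136X (0.39 ± 0.098, adjusted p = 0.0381) and in 2 of 3 in R58Q (0.19 ± 0.12, adjusted p = 0.307).

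CYP51A1 (ENSG00000001630.17, chr7:92112153-92134803), the lanosterol demethylase, was at 9.38, 8.98 and 8.06 CPM in vector, 14.7, 12.99 and 14.7 CPM in S136X and 19.9, 14.7 and 15.8 CPM in R58Q. No mutant library overlapped a vector library. The change was 0.68 ± 0.11 (1.60-fold, adjusted p = 0.00754) in S136X and 0.93 ± 0.13 (1.90-fold, adjusted p = 0.00294) in R58Q, the highest of the 31 genes in R58Q. SC5D (ENSG00000109929.10, chr11:121292681-121313410), a late desaturase, was at 38.2, 43.9 and 42.2 CPM in vector, 50.2, 51.4 and 57.6 CPM in S136X and 47.9, 50.3 and 55.4 CPM in R58Q. All mutant libraries were above vector, with changes of 0.36 ± 0.082 (adjusted p = 0.0283) and 0.31 ± 0.081 (adjusted p = 0.0312). DHCR7 (chr11:71428193-71452868), the last reductase of the route, was at 54.2, 51.2 and 49.4 CPM in vector, 78.0, 61.9 and 73.4 CPM in S136X and 71.0, 53.9 and 57.9 CPM in R58Q. It rose by 0.46 ± 0.091 (1.38-fold, adjusted p = 0.0162) in S136X, and in R58Q its change of 0.24 ± 0.10 passed only with the block (adjusted p = 0.0266).

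The other 5 sterol genes (TM7SF2, MSMO1, NSDHL, HSD17B7 and EBP) did not pass in either mutant. TM7SF2, a sterol reductase, and EBP, a sterol isomerase, had changes of -0.063 and 0.050 in S136X and -0.191 and 0.134 in R58Q. The demethylation enzymes MSMO1, NSDHL and HSD17B7 had changes of 0.317 to 0.336 in S136X, and all 3 rose with the block, as did MSMO1 and NSDHL in R58Q. MSMO1 was at 43.8 CPM in S136X replicate 1 and at 29.8 and 32.0 CPM in replicates 2 and 3, so replicate 1 raised its group mean. Against the vector library of the same number, its log2 ratios in S136X were 0.524, 0.004 and 0.396 in pairs 1, 2 and 3.

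**Figure D3:**
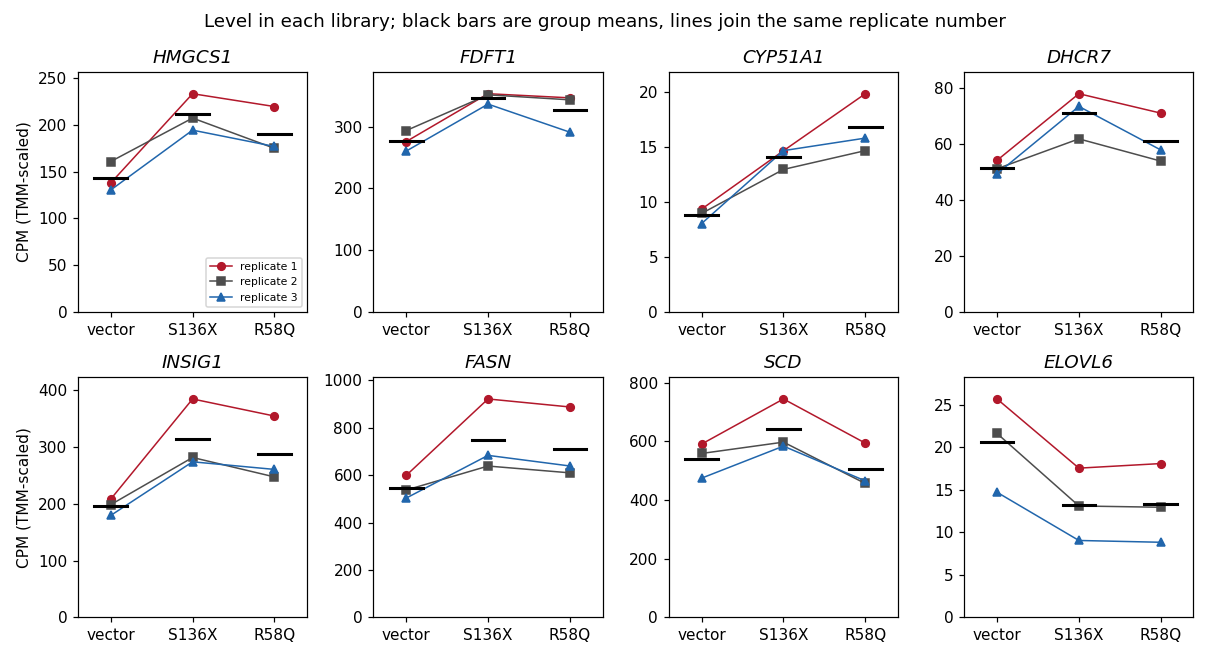
CPM of 8 of the genes in each library, with lines joining libraries of the same replicate number across vector, S136X and R58Q and black bars at group means; each vertical axis starts at 0. Replicate 1 is the highest mutant library in each of the 8 panels for R58Q and in 7 for S136X (level with replicate 3 for CYP51A1), and ELOVL6 is the only panel in which 3 of 3 lines fall from vector to both mutants.

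Of the 5 SREBP regulators, INSIG1 rose in both mutants (20%, beside 10.1% and 21% of all genes called) and the other 4 passed in neither, with or without the block. INSIG1 (ENSG00000186480.13, chr7:155297776-155310235), the sterol-sensitive anchor of SCAP, was at 208, 199 and 179.6 CPM in vector, 385, 282 and 274 CPM in S136X and 355, 247.5 and 261 CPM in R58Q. Every mutant library exceeded every vector library, and replicate 1 was far above the other replicates in both mutants. The change was 0.68 ± 0.13 (1.60-fold, adjusted p = 0.0137) in S136X and 0.56 ± 0.13 (1.47-fold, adjusted p = 0.0215) in R58Q. SREBF1 and SREBF2, which encode the SREBP proteins, had changes of 0.127 and 0.054 in S136X and 0.006 and 0.039 in R58Q. Their intervals (2 SE either side) were -0.149 to 0.403 and -0.076 to 0.184 in S136X. SCAP was at 112, 98.3 and 106 CPM in vector, 118, 109 and 112 CPM in S136X and 116, 117 and 109 CPM in R58Q, with a change of 0.10 ± 0.066 (adjusted p = 0.355) and 0.11 ± 0.065 (adjusted p = 0.251). INSIG2, the second INSIG gene, was at 9.893 to 12.07 CPM over all libraries. SREBP activity depends on cleavage of the protein, which these data did not measure.

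Of the 7 fatty acid genes, 1 rose in S136X (14.3%, beside 10.1% of all genes called) and 0 in R58Q (beside 21%). With the block, 4 rose and 1 fell in S136X (71.4%, beside 24.7%), and 2 rose and 1 fell in R58Q (42.9%, beside 35.2%). ACLY (chr17:41866917-41930542), which makes cytosolic acetyl-CoA for both routes, was at 456, 408 and 399.9 CPM in vector, 537.5, 501 and 492 CPM in S136X and 514, 455.5 and 458 CPM in R58Q. S136X libraries were above vector, and the change was 0.28 ± 0.073 (adjusted p = 0.0459) in S136X and 0.17 ± 0.078 (adjusted p = 0.146, 0.0204 with the block) in R58Q. FASN (chr17:82078338-82098294), which builds palmitate, was at 599, 537 and 503 CPM in vector, 922, 639 and 684 CPM in S136X and 888, 609.9 and 639 CPM in R58Q. All mutant libraries exceeded the vector libraries, yet the spread from replicate 1 was wide. The change was 0.45 ± 0.13 (adjusted p = 0.067) in S136X and 0.38 ± 0.14 (adjusted p = 0.0904) in R58Q, and with the block FASN rose in both (adjusted p = 0.00128 and 0.00454).

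ELOVL6 (ENSG00000170522.10, chr4:110045846-110199199), which lengthens palmitate, ran the other way. It was at 25.7, 21.6 and 14.7 CPM in vector, 17.6, 13.1 and 9.05 CPM in S136X and 18.1, 12.96 and 8.84 CPM in R58Q. The groups overlapped, but within each replicate number both mutants were below vector. The change was -0.64 ± 0.25 (adjusted p = 0.147) in S136X and -0.64 ± 0.27 (adjusted p = 0.126) in R58Q, and it fell in both with the block (adjusted p = 0.000436 and 0.000452) and with DESeq2 (adjusted p = 0.037 and 0.0449). ACACA, the acetyl-CoA carboxylase, and the desaturases SCD, FADS1 and FADS2 had changes of 0.218, 0.246, 0.176 and 0.023 in S136X and 0.148, -0.102, -0.029 and -0.160 in R58Q. None of these 4 passed, and with the block ACACA and SCD rose in S136X only. STARD4, which carries cholesterol between membranes, was at 28.2, 26.6 and 20.7 CPM in vector, 39.2, 29.1 and 24.7 CPM in S136X and 46.5, 31.7 and 30.9 CPM in R58Q. R58Q libraries did not overlap vector, and the change was 0.30 ± 0.17 (adjusted p = 0.311) in S136X and 0.53 ± 0.17 (adjusted p = 0.064) in R58Q, both of which passed with the block (adjusted p = 0.0254 and 0.00228).

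R58Q was also compared directly with S136X, which is the test of whether the mutants differed. In edgeR's quasi-likelihood test 0 of the 31 genes passed, 2 had an unadjusted p under 0.05 (ACAT2 and SCD, named after their values were seen), and DESeq2 and limma-voom also called 0. The background was 0.533% of 15195 genes. The median difference was -0.095 against 0.003 for all genes, with 26 fitted lower in R58Q and 5 higher (50.7% of all genes were fitted higher), and R58Q was lower in all 3 same-numbered pairs for 18 of the 31 (beside 21.3% of all genes) and higher in all 3 for 4 (beside 25.3%). With the replicate block, 10 were lower in R58Q (HMGCS1, ACAT2, INSIG1, SQLE, SCD, FADS2, FADS1, DHCR7, SREBF1 and LSS) and 2 higher (CYP51A1 and STARD4), which is 38.7% beside 14.6% of all genes (7.84% higher and 6.71% lower). The direction is also that of the column dates, from which R58Q cannot be told apart.

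The widest of these differences was that of SCD. It was at 591, 559 and 474.5 CPM in vector, 744, 597 and 584 CPM in S136X and 594, 456 and 465 CPM in R58Q. R58Q was below S136X by 0.33, 0.39 and 0.33 on the log2 scale in pairs 1, 2 and 3, a pattern of like size in each pair although the groups overlapped. The fitted difference was -0.35 ± 0.12, with an interval of -0.603 to -0.106 (adjusted p = 0.336, 3.9e-06 with the block). ACAT2 was the only gene with no overlap (7.57% of all genes were so lower in R58Q, -0.19 ± 0.057, adjusted p = 0.232). For HMGCS1 and INSIG1, the intervals of the difference were -0.363 to 0.042 and -0.463 to 0.198. For CYP51A1 it was -0.015 to 0.497, and for ELOVL6, whose mutant libraries were nearly level, -0.591 to 0.582.

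**Figure D4:**
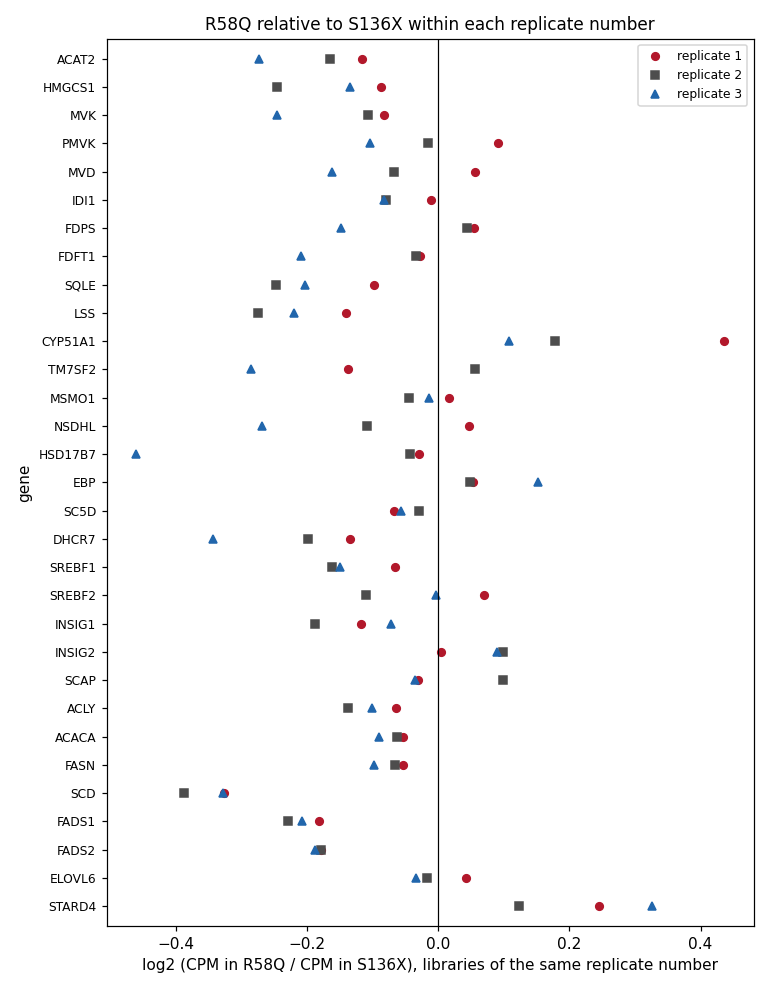
Log2 of the CPM in R58Q over the CPM in S136X for each of the 31 genes, with 1 point for each replicate number; the vertical line marks equal levels. For 18 genes all 3 points lie left of the line, with SCD between -0.39 and -0.33, and for 4 genes all 3 lie to its right.

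Replicate 1 stood apart for these genes. It was the highest library of its group for 25 of the 31 in vector, 25 in S136X and 27 in R58Q (80.6%, 80.6% and 87.1%), beside 37.6%, 37.2% and 37.9% of 15251 genes. All 7 fatty acid genes were highest in replicate 1 in each group. The summed level of the 31 genes was 4690, 4444 and 4079 CPM in vector replicates 1 to 3, 6058, 4999 and 4959 CPM in S136X and 5713, 4535 and 4492 CPM in R58Q. In S136X every library exceeded every vector library, while 2 R58Q libraries fell between the vector libraries. The summed B-cell markers were lowest in replicate 1 of each group, at 2682, 2495 and 2345 CPM, and the part of either difference in the other was not tested. Without replicate 1 in both groups, 13 of the 31 rose in S136X (median 0.208) and 5 in R58Q (median 0.152). Without replicate 2 or replicate 3 the counts were 0 and 0 in S136X and 1 and 0 in R58Q. Calls over all genes dropped likewise. Without replicates 1, 2 and 3 in turn they were 1855 of 15715, 232 of 15667 and 210 of 15585 in S136X. In R58Q they were 2973 of 15591, 832 of 15612 and 569 of 15506.

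Genes of neighbouring routes were read against the same shares of all genes called, 10.1% in S136X and 21% in R58Q, or 24.7% and 35.2% with the block. Of 11 tested genes of sterol efflux, storage and oxysterol sensing, 0 passed in S136X and 1 rose in R58Q, the lysosomal cholesterol carrier NPC2 (0.27, adjusted p = 0.0413). The efflux pump ABCA1 was at 14.2 ± 5.32 CPM (SD, n = 3) in vector, 7.57 ± 3.67 CPM in S136X and 8.26 ± 4.43 CPM in R58Q. It did not pass in the main test and fell with the block (adjusted p = 0.000796 and 0.00557). ABCG1, another efflux gene, fell with the block in S136X (adjusted p = 0.000247) but did not pass in R58Q (adjusted p = 0.057). With the block, 2 of the 11 fell in S136X (18.2%), while in R58Q 3 rose and 1 fell (36.4%). Of 10 genes of SREBP processing and turnover, 0 passed in S136X and 2 in R58Q (20%), among them C12orf49, which fell (-0.32, adjusted p = 0.049). With the block, 2 rose and 2 fell in S136X (40%), and 3 rose and 2 fell in R58Q (50%). Of 14 genes of the isoprenoid branches, 2 rose in S136X (14.3%) and 3 rose and 1 fell in R58Q (28.6%), and with the block 5 passed in each (35.7%). PDSS1, a subunit of the enzyme that makes the ubiquinone tail, rose by 0.37 (adjusted p = 0.0256) and 0.41 (adjusted p = 0.0062), and its partner PDSS2 fell in R58Q (-0.36, adjusted p = 0.0351). NUS1, of dolichol synthesis, rose by 0.30 (adjusted p = 0.0393) and 0.38 (adjusted p = 0.0109).

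Of 17 tested genes of fatty acid supply, elongation and activation, 1 rose and 2 fell in S136X, and 2 rose and 1 fell in R58Q (17.6% in each, beside 10.1% and 21% of all genes). With the block, 6 rose and 3 fell in each mutant (52.9%, beside 24.7% and 35.2%). ACACB, the mitochondrial acetyl-CoA carboxylase, fell in both, from 16.1, 17.9 and 22.1 CPM in vector to 9.77, 12.96 and 11.7 CPM in S136X (-0.70, adjusted p = 0.0204) and 10.7, 12.5 and 10.6 CPM in R58Q (-0.74, adjusted p = 0.00801). The groups did not overlap. ACSL5, which activates fatty acids, rose in R58Q (0.40, adjusted p = 0.00713), as did the elongation enzyme gene HSD17B12 (0.36, adjusted p = 0.0248). Of 16 genes of fatty acid oxidation, 1 fell in S136X (HADH, -0.38, adjusted p = 0.0239), and in R58Q 2 rose, ETFA among them (0.27, adjusted p = 0.014), and 1 fell (ACADM, -0.41, adjusted p = 0.011), which is 6.25% and 18.8%, and 12.5% and 31.2% with the block. Of 14 tested genes of triglyceride and phospholipid synthesis, LPIN2 rose in S136X (0.22, adjusted p = 0.0442; 7.14%) and 0 passed in R58Q, while with the block 35.7% and 21.4% passed.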

How the data were processed

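RNA-seq of 9 RIVA libraries was analysed. Per the labels, poly(A) libraries (Nugen kit) were sequenced on an Illumina NovaSeq in 2 runs, and STAR, Picard, cutadapt and hg38 are named without versions; the counting program, annotation and strand setting are not given in the sources used here. The authors deposited read counts per gene, which were used, and a normalized signal (counts divided by 1 factor per library), which was not. Genes of the table were matched to GENCODE 29 (96.3% of identifiers). In R 4.3.3 with edgeR 4.0.16, the 6 libraries of each comparison were filtered (filterByExpr, minimum count 10, minimum total 15), TMM-scaled and fitted with the quasi-likelihood test, Benjamini-Hochberg adjusted over all genes tested, with a threshold of 0.05. On simulated data for S136X against vector (15258 genes, 200 changed 2-fold), edgeR recovered 71% and made 14 false calls. The simulated libraries shared no replicate effect, and the median change of the 31 genes was 1.21-fold. Recovery of changes of that size was not measured. The replicate numbers were taken to pair libraries because all 9 same-number correlations of deviations exceeded 0.1 (0.143 to 0.626, median 0.425). Different numbers gave -0.459 to 0.169 (median -0.251), so the ranges overlapped. Vector replicate 3 with R58Q replicate 2 (0.169) exceeded vector replicate 2 with replicate 2 of S136X (0.143) and of R58Q (0.163). Replicates of a group differed far beyond counting noise (chi-square from 7.91 to 25.6 per degree of freedom). Alternatives used DESeq2 1.42.0, limma 3.58.1 (voom), other scalings and filters, all 9 libraries, the block, each library left out and other thresholds. Leaving out a replicate number in both groups was added once the data had been seen. The 31 genes and all lists were chosen with earlier results of these data known. Values in every library are given for genes that passed in any comparison and for the 2 largest mean changes of each role group, with SCD added after its values were seen. Of neighbouring lists, up to 3 passing genes with the smallest adjusted p are named, with ABCA1 and ABCG1 added likewise. A gene that this rule selects is not reported here. Promoters are from RefSeq.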

Additional observations from a re-analysis of the deposited data

How the results depend on the processing

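Each group had 3 libraries, and pairs of libraries within a group differed far beyond counting noise, with or without replicate 1. The 11 genes that rose in S136X numbered 21 called with the replicate block, 2 at an adjusted p under 0.01 and 2 at 1.5-fold, and 0 to 13 when libraries were left out. DESeq2, limma-voom, other scalings, filters and all 9 libraries gave 8 to 15. Over all genes, S136X calls were 3840 with the block, 457 under 0.01 and 601 at 1.5-fold. They were 210 to 1855 with libraries left out and 1512 to 2226 with those other fits. The 4 in R58Q numbered 8 with DESeq2, 2 with upper-quartile scaling, 10 with no filter, 15 with the block, 1 at an adjusted p under 0.01, 1 at 1.5-fold and 0 to 5 when libraries were left out. Over all genes, R58Q calls were 3471 with DESeq2, 3355 with upper-quartile scaling, 3638 of 30171 with no filter and 5433 with the block. They were 1103 under 0.01, 1178 at 1.5-fold and 569 to 2973 with libraries left out. The 0 between the mutants became 12 with the block. The median change kept its sign under every alternative, at 0.173 to 0.312 in S136X, 0.116 to 0.215 in R58Q and -0.216 to -0.018 between mutants when libraries were left out.

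Genes that passed in no comparison or were not called changed sign in some fits; the cause was not tested. In S136X, with libraries left out, FADS2 (0.023) ran from -0.178 to 0.150, EBP (0.050) from -0.023 to 0.128, INSIG2 (-0.050) from -0.162 to 0.020, SREBF1 (0.127) from -0.059 to 0.233, FADS1 (0.176) from -0.018 to 0.296 and TM7SF2 (-0.063) from -0.181 to 0.058. FADS2 was -0.012 with upper-quartile scaling and -0.033 with total counts, and EBP -0.002 with total counts. In R58Q, SREBF1 (0.006) ran from -0.205 to 0.117, SREBF2 (0.039) from -0.021 to 0.080, INSIG2 (0.010) from -0.068 to 0.075 and FADS1 (-0.029) from -0.226 to 0.085. SREBF1 was -0.016 with voom, -0.057 with upper-quartile scaling, -0.055 with total counts and -0.015 with the replicate block, SREBF2 -0.024 and -0.020 with those scalings, and INSIG2 -0.054 and -0.049. Between mutants the ranges were SCAP -0.040 to 0.034, ELOVL6 -0.285 to 0.249, FDPS -0.089 to 0.042, MSMO1 -0.220 to 0.169, SREBF1 -0.346 to 0.057, SREBF2 -0.090 to 0.028, INSIG1 -0.306 to 0.040, ACACA -0.216 to 0.058, FASN -0.264 to 0.097, FADS2 -0.388 to 0.011, PMVK -0.068 to 0.031 and SC5D -0.124 to 0.010. SCAP was -0.001 with DESeq2 and -0.017 with upper-quartile scaling, and ELOVL6 0.003 with no filter and 0.004 with all 9 libraries.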
